A study of Mus musculus and Rattus norvegicus with 79 samples.

Results

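The glucocorticoid receptor (GR), which the gene Nr3c1 encodes, was mapped in mouse liver chromatin at ZT10, and 393 of its 5772 replicate-concordant binding peaks lay far from any annotated gene. ZT, Zeitgeber time, counts hours from lights on. A peak was called far when its edge was more than 25 kb from every gene interval of the RefSeq annotation of the mm10 build, noncoding genes and pseudogenes included. These far peaks were 6.81% of the concordant list. The other concordant peaks were 3684 inside gene intervals (63.8%) and 1695 flanking them within 25 kb (29.4%). The choice used coordinates and annotation only, and no measured level.

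GR is a nuclear receptor that enters the nucleus once a glucocorticoid hormone binds it, and it binds DNA as a dimer at palindromic response elements or joins other factors already on chromatin. In liver it drives genes of glucose production, amino acid breakdown and stress response, and much of its binding is at enhancers away from start sites. An enhancer can act on a gene other than the closest one, so a nearest gene is a position on the map and not a target.

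The chromatin came from livers of unfed C57BL/6 mice that received no virus (a GR library and an input library) and of unfed Nr3c1fl/fl mice 10 days after an adeno-associated virus carrying GFP or CRE (a GR library each). In these vectors the tbg promoter, active in hepatocytes, drives either GFP, the control, or CRE. CRE is a recombinase that cuts out the floxed stretch of Nr3c1, so liver cells other than hepatocytes keep the gene. Liver RNA depleted of ribosomal RNA was sequenced from the same 2 virus groups of Nr3c1fl/fl mice, with 3 libraries a group (36 in all). The livers of ZT10 and ZT12 were unfed and those of ZT13, ZT14, ZT18 and ZT22 were fed. PolyA RNA was sequenced from C57BL/6 livers without virus, unfed at ZT10 and in both feeding states at the 4 later hours ZT13, ZT14, ZT18 and ZT22, with 3 libraries a group (27 in all). All mice were trained to eat at night.

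Library totals were 34.64 to 78.76 M counts (median 53.42 M) in the virus experiment and 23.87 to 91.77 M (median 43.6 M) in the feeding experiment. Nr3c1 RNA was lower in CRE livers by 0.63 ± 0.06 on the log2 scale (SE, mean of the 6 times, 18 libraries a side, adjusted p = 1.85e-09), and the 3 CRE libraries were below the 3 GFP libraries at 6 of 6 times. In 6 virus libraries the single row NR_046233, which matched no gene, took over 20% of the counts (2.23% to 28.5% over all 36). These were the 3 GFP libraries of ZT10, CRE replicate 1 of ZT10, and GFP replicates 1 and 2 of ZT12, so this share moved with virus group at those hours, and results without these libraries are given where a call or a count changed. Hepatocyte markers were abundant in all libraries, summing to 40536 to 59823 CPM (counts scaled to library size) in CRE and 47706 to 71152 CPM in GFP livers. Of these markers, 5 of 9 were lower and 1 higher in CRE livers. Of all 15712 genes tested, 6.64% were lower and 7.92% higher over the mean of the 6 times. None of the markers of Kupffer cells (8), endothelial cells (8), stellate cells (6) or bile duct cells (5) passed the test between CRE and GFP livers. The labels do not say that libraries came from separate animals, so p-values measure the spread between these libraries.

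The far peaks were spread widely and thinly over the genome. They lay on 20 chromosomes in 311 gaps between neighbouring genes, and 257 of the gaps held a single far peak. Another 54 gaps held more than 1, up to 5. The share of concordant peaks that were far differed between chromosomes, from 44 of 331 (13.3%) on chromosome 3 and 34 of 306 (11.1%) on chromosome 13 to 4 of 218 (1.83%) on chromosome 17. The median gap around a far peak was 143 kb wide, and the widest was 1272 kb.

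Most far peaks were only moderately beyond the limit. The distance to the nearest gene interval had a median of 43.7 kb (quartiles 31.4 and 64.2 kb). The counts were 238 peaks between 25 and 50 kb, 110 between 50 and 100 kb, 37 between 100 and 200 kb, and 8 beyond 200 kb. The closest far peak was at 25.032 kb and the last peak left out was at 24.973 kb. Protein-coding genes were farther away, at a median of 90.5 kb (quartiles 48.6 and 213 kb). For 382 far peaks, those on chromosomes for which start sites were used, the nearest annotated start site was at a median of 72.9 kb.

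**Figure D1:**
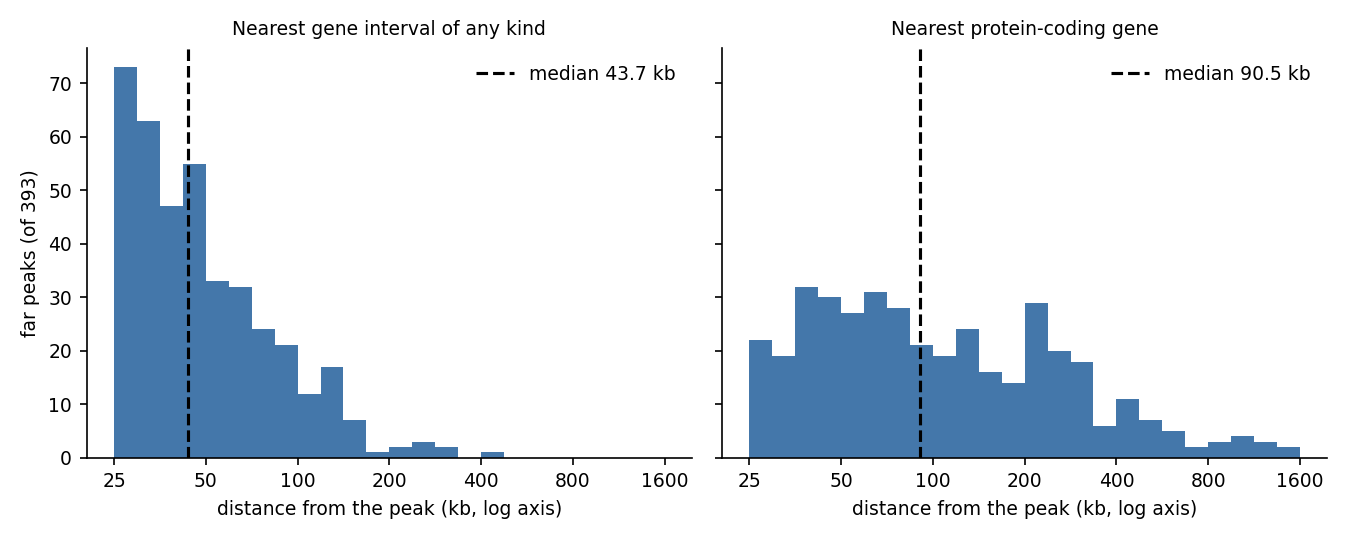
Number of far peaks (vertical axis, of 393) by distance in kb on a log axis to the nearest gene interval of any kind (left) and to the nearest protein-coding gene (right). The dashed lines mark medians of 43.7 kb and 90.5 kb, and the left panel falls away steeply beyond 50 kb while the right panel is spread out to 1557 kb.

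The nearest gene was most often noncoding. It was a long noncoding RNA for 167 far peaks (42.5%), a protein-coding gene for 103 (26.2%), a pseudogene for 89 (22.6%), a snoRNA for 16, a miRNA for 7, an snRNA for 6, a transcribed pseudogene for 3 and a tRNA for 2. Of 209 far peaks whose nearest gene had a known strand in the start-site table, 96 were on its 5′ side and 113 on its 3′ side. The 5′ share was 45.9% (95% Wilson interval 39.3% to 52.7%), and in flanking peaks it was 55.3% (52.4% to 58.3%, 607 of 1097). Wilson intervals here cover counting error only, peaks are not replicates, and no test was made between classes of peaks.

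The start sites of the genes nearest to far peaks were set against the concordant peaks and searched for a GR motif. RefSeq start-site windows (build GRCm38.p6, 250 bases before to 50 after the start) were found for 179 of the 329 genes. A concordant peak overlapped a window of 4 of them, C6, Prlr, Fam50b and Gm40533. This overlap was not counted for other genes, so the number has no background beside it. Windows were searched on both strands for the GR hexamer, AGAACA or TGTTCT. It was in 26.5% of 215 windows of nearest genes, in 27.8% of 36 windows of nearest genes that differed between CRE and GFP livers, and in 19.0% of all 32817 windows. The full palindrome, the hexamer and its reverse complement 3 bases apart, was in 3 of all windows and in 0 of the 215. A match is a description of letters and not evidence of binding. Of the 16 genes that the naming rule took for the CRE comparison, 14 had a window and 2 held a hexamer in the first one, Dancr and Pde4b. These 2 windows are shown with the hexamer in capitals, and that of C6 with the 132 bases under the concordant peak chr15:4727128-4727336 in capitals, each 5′ to 3′ on the strand of the gene.
C6, chr15:4726960-4727259, plus strand: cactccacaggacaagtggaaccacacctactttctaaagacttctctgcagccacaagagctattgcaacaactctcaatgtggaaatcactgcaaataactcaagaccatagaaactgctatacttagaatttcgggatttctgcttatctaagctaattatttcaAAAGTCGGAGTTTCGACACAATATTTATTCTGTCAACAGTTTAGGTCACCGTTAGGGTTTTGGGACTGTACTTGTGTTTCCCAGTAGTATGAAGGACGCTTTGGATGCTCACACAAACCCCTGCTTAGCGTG
Dancr, chr5:74092810-74093109, plus strand: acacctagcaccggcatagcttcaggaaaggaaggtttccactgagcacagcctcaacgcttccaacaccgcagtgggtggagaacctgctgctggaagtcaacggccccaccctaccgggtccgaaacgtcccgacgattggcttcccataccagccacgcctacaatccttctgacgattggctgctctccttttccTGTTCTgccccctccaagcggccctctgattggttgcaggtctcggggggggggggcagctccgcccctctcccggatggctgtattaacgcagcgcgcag
Pde4b, chr4:102421305-102421604, plus strand: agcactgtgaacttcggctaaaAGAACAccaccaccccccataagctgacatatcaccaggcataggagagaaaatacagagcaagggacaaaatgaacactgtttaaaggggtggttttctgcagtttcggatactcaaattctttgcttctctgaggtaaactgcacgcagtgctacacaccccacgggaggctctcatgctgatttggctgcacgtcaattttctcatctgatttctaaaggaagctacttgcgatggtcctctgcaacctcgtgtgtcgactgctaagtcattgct
The Dancr hexamer begins 51 bases before the annotated start and the Pde4b one 228 bases before the start used. The far peaks themselves were 110 kb, 29.1 kb and 216 kb from these start sites, and their own sequences are not shown here.

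The 5 most isolated far peaks stood in gene deserts. The farthest, chr3:42408987-42409195, was 431 kb from the pseudogene Gm7899 and 606 kb from the nearest protein-coding gene. The next were chr5:46713572-46713780 (298 kb from Gm7931), chr5:40692294-40692502 (286 kb from Gm23022), chr18:18914024-18914232 (254 kb from Gm31086) and chr3:114570991-114571199 (253 kb from Gm23750). Each of these was the only far peak in its gap.

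Fewer far peaks than other peaks had a concordant neighbour close by. The 25 kb rule partly sets this, because no peak inside a gene can lie within 10 kb of a far peak. Another concordant peak lay within 10 kb of 71 far peaks (18.1%, 14.6% to 22.2%), against 25.8% of flanking peaks and 25.8% of peaks inside genes. Within 50 kb the far share was 173 of 393 (44.0%, 39.2% to 49.0%), against 61.6% and 60.1%. The median distance to the next concordant peak was 66.7 kb for far peaks, 29.5 kb for flanking peaks and 31.7 kb for peaks inside genes. Joined where their centres were at most 50 kb apart, the far peaks formed 329 groups, of which 284 were single peaks, 33 were pairs and 12 held 3 or more.

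The 12 groups of 3 or more bordered both coding and noncoding genes. The largest had 5 peaks in chr1:82158584-82202928, between the microRNA gene Mir6344 and Irs1, which encodes an adaptor of the insulin receptor (gene interval chr1:82233105-82291439). Its closest member was 30.2 kb from Irs1. A group of 4 spanned chr8:46876040-46903260 between Irf2, a transcription factor of interferon responses, and Enpp6, a choline phosphodiesterase. A group of 4 in chr1:137020587-137053531 had Nr5a2, a nuclear receptor of bile acid and cholesterol metabolism, as its closest protein-coding gene, 60.1 kb away. Beside Akr1d1, the bile acid enzyme 5β-reductase, 3 far peaks lay 29.7 to 44.2 kb from the gene in chr6:37604606-37619363. Pvt1, a long noncoding RNA gene next to Myc, had 3 far peaks at 43.9 to 132 kb in chr15:62304081-62392689. Concordant peaks also lay inside Irs1 (1), Irf2 (3), Akr1d1 (2) and Pvt1 (6). Other groups were of 4 peaks between Ptger3, a prostaglandin receptor, and Gm5550, of 4 near Mir680-3, of 4 between the noncoding genes 4921525O09Rik and Gm33041, and of 3 each at Gm31164 (Maf, a transcription factor, 228 kb away), Gm41020, Gm36873 and LOC108167736.

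Counting concordant peaks of every class, the most crowded far peaks were chr3:21995630-21995838 and chr8:46409517-46409725, each with 8 others within 100 kb. The first was 31.3 kb from Gm31813 and 80.4 kb from Tbl1xr1, a transcriptional co-regulator. The second was 42.3 kb from Gm30931 and 61.3 kb from Acsl1, an acyl-CoA synthetase of fat metabolism.

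The 3 deposited peak lists differed in size and were not independent. A list called against input chromatin (the input-control list) held 23683 peaks and a list called against chromatin of CRE livers (the knockout-control list) held 18543. Every concordant peak was a line of the knockout-control list, and the concordant list equalled the peaks of that list that overlapped an input-control peak by at least 1 base. That overlap of far peaks with both lists is therefore fixed by how the list was made. With overlap over at least 50% of the peak, 278 of 393 far peaks (70.7%, 66.1% to 75.02%) matched an input-control peak, against 72.1% of flanking peaks and 71.2% of peaks inside genes. The centres of far peaks were a median of 65 bases from the closest input-control centre, against 56 and 58 bases.

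Peaks far from genes made up 4.25% of the knockout-control list and 7.96% of the input-control list. Of the 788 far peaks of the knockout-control list, 393 (49.9%, 46.4% to 53.4%) overlapped an input-control peak. The share was 35.7% (34.3% to 37.0%) of 4752 flanking peaks and 28.3% (27.6% to 29.1%) of 13003 peaks inside genes. In the other direction, 394 of 1884 far input-control peaks (20.9%, 19.1% to 22.8%) overlapped a knockout-control peak, against 26.3% of flanking peaks and 23.99% of peaks inside genes. The lists carry no heights or scores, so peak strength was not compared, and each list is 1 call set with no replicate of its own.

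**Figure D2:**
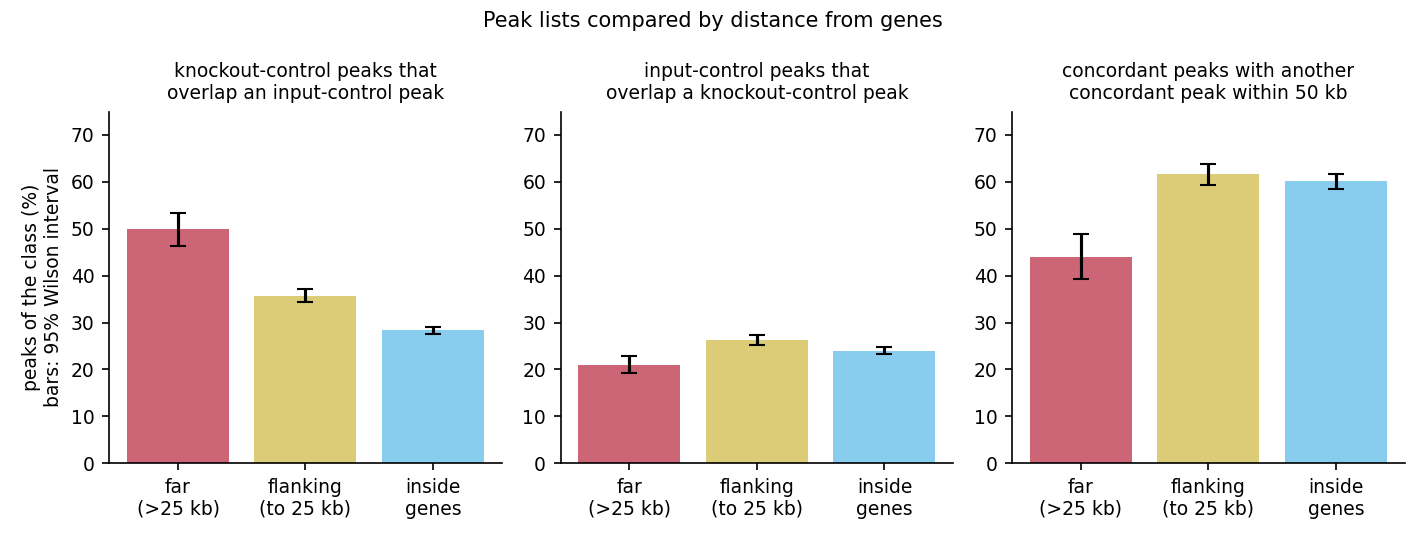
Share in percent of peaks in 3 distance classes (far, flanking to 25 kb, inside genes) with 95% Wilson intervals as error bars. Left, knockout-control peaks that overlap an input-control peak (49.9%, 35.7% and 28.3%). Middle, input-control peaks that overlap a knockout-control peak (20.9%, 26.3% and 23.99%). Right, concordant peaks with another concordant peak within 50 kb (44.0%, 61.6% and 60.1%). The rule that defines far peaks partly sets the right panel.

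Most textbook GR targets had a peak inside or close to the gene. Of 32 listed target genes such as Fkbp5, Per1 and Tat, 15 had a concordant peak inside the gene and 27 had one inside or within 25 kb. Of all 15712 genes tested, 13.5% had a concordant peak inside and 28.6% had one inside or within 25 kb. None of the 32 was the nearest gene of a far peak, and of all genes tested 0.566% were, so this 0 is near the background. Bcl6, a transcriptional repressor, was the nearest protein-coding gene of 2 far peaks, at 55.0 and 132 kb (chr16:24043886-24044094 and chr16:24120908-24121116). Bcl6 RNA in CRE against GFP livers was at 0.12 ± 0.21 on the log2 scale (adjusted p = 0.784). Of the 31 target genes tested, 24 were lower and 1 was higher in CRE livers over the mean of the 6 times. Of all 15712 genes tested, 6.64% were lower and 7.92% higher. The target list was chosen with earlier results of these data known, so its count is not independent of them.

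The first RNA comparison asked which genes nearest to far peaks differed in level when GR was deleted in hepatocytes. Gadd45g, Gldc and C6 were among those that fell in CRE livers, while Prlr, Slc4a4, Wwox and Plxna2 were among those that rose. In whole liver, fewer cells of a type and less RNA per cell cannot be told apart. The far peaks had 329 distinct nearest genes, and 89 of them had enough counts to be tested (27.1%), of which 79 were protein-coding and 9 were long noncoding RNA genes. None of the nearest pseudogenes (75), snoRNAs (12), snRNAs (6), miRNAs (2) or tRNAs (1) entered the test.

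Over the mean of the 6 times, 32 of the 89 tested nearest genes passed an adjusted p under 0.05 (35.96%, 26.8% to 46.3%), 17 higher and 15 lower in CRE livers. Of all 15712 genes tested, 14.6% passed, 7.92% higher and 6.64% lower. Nearest genes of flanking peaks passed in 32.6% of 728 cases and genes around inside peaks in 31.8% of 2044 cases, close to the share for far peaks. The median change was 0.01 for far-peak genes, -0.03 and -0.01 for the other classes and -0.00 for all genes. Changes were small: 7 of the 32 passed 0.5 on the log2 scale and 2 passed 1. Without the 6 libraries rich in NR_046233, which removes ZT10 and leaves 5 times, 15 of 92 nearest genes passed, against 8.36% of all genes.

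Many of these nearest genes also had GR peaks closer by. Of the 89, 43 had a concordant peak inside or within 25 kb, where 28.6% of all 15712 genes tested had one. Of those 43, 21 passed (10 higher, 11 lower). The other 46 had no such peak, and 11 passed (7 higher, 4 lower). Of all genes tested, with and without such peaks, 14.6% passed. By distance to the far peak, 21 of 62 tested genes passed at 25 to 50 kb, 8 of 20 at 50 to 100 kb and 3 of 7 beyond 100 kb.

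**Figure D3:**
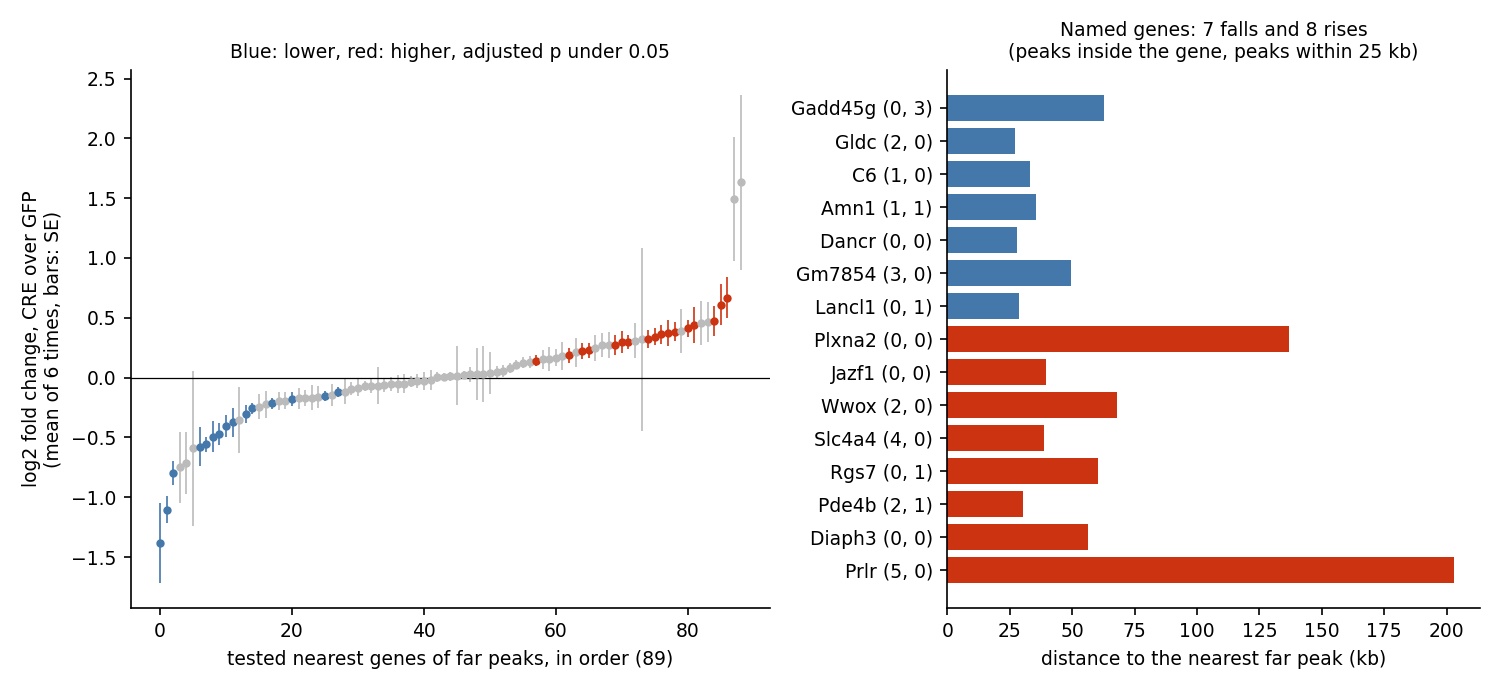
Left, log2 fold change of CRE over GFP livers (mean of 6 times, bars are SE) for the 89 tested nearest genes in order, with genes lower at an adjusted p under 0.05 in blue and higher ones in red. Right, distance in kb from 15 named genes to their nearest far peak, with the numbers of concordant peaks inside the gene and within 25 kb in brackets. Calls occur across the range of small changes, and distances run from 26.99 kb for Gldc to 203 kb for Prlr.

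Gldc, the glycine decarboxylase of the mitochondrial glycine cleavage system, is at chr19:30098441-30175441, with its far peak at chr19:30202433-30202641, 26.99 kb away. At ZT13 it was at 324, 371 and 156 CPM in the GFP livers and at 62.2, 67.0 and 97.3 CPM in the CRE livers. The groups did not overlap at 5 of 6 times, with CRE lower each time, and only at ZT22 were they mixed. Over all 18 libraries a side, GFP ran from 94.5 to 371 CPM (median 223) and CRE from 43.3 to 243 CPM (median 87.8). Gldc fell by 1.10 ± 0.11 (log2, adjusted p = 2.59e-08). It also had 2 concordant peaks inside the gene.

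C6, a component of the complement membrane attack complex, is at chr15:4727067-4804045, with a far peak at chr15:4837205-4837413, 33.2 kb away. At ZT12 the GFP livers were at 413, 492 and 452 CPM and the CRE livers at 225, 171 and 127 CPM. The 3 CRE libraries were below the 3 GFP libraries at 5 of 6 times. C6 fell by 0.80 ± 0.10 (adjusted p = 8.37e-07). It also had 1 concordant peak inside the gene, the one that overlapped its start-site window.

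Gadd45g, a stress-response gene that regulates MAP kinase signalling and growth arrest, is at chr13:51846675-51848475 with a far peak at chr13:51911311-51911519, 62.8 kb away, and 3 concordant peaks within 25 kb. At ZT12 it was at 16.1, 30.9 and 34.3 CPM in GFP livers and at 1.89, 2.88 and 1.25 CPM in CRE livers. The CRE libraries were all below the GFP libraries at only 2 of 6 times, ZT12 and ZT13. At ZT18, for example, the groups overlapped, with 4.95, 4.43 and 2.78 CPM in GFP and 6.95, 3.29 and 2.45 CPM in CRE livers. The change over the 6 times was -1.38 ± 0.34 (adjusted p = 0.00438), and leaving out single libraries gave -1.55 to -0.99.

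The other named falls were smaller. Amn1, a leucine-rich repeat protein gene, changed by -0.58 ± 0.16 (adjusted p = 0.0151), with its far peak 35.5 kb away. Its CRE libraries were all lower at 2 of 6 times, ZT12 (-1.25 ± 0.40) and ZT13 (-1.30 ± 0.40). At ZT14 the Amn1 change was 0.23 ± 0.40 and at ZT18 -0.17 ± 0.40. Dancr, a long noncoding RNA, changed by -0.49 ± 0.13 (adjusted p = 0.00766) from a low level, a median of 1.55 CPM in GFP and 1.12 CPM in CRE livers. Its far peak was at chr5:74122062-74122270, 27.7 kb away, and it had no concordant peak inside or within 25 kb. The noncoding RNA Gm7854 changed by -0.47 ± 0.09 (adjusted p = 0.000645, far peak at 49.3 kb) and Lancl1, a glutathione-binding protein gene, by -0.40 ± 0.09 (adjusted p = 0.00209, far peak at 28.7 kb). Closer concordant peaks were 1 inside and 1 within 25 kb for Amn1, 3 inside Gm7854 and 1 within 25 kb of Lancl1. Without the 6 libraries rich in NR_046233 the calls of Amn1 (adjusted p = 0.0797) and Dancr (adjusted p = 0.113) were lost.

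Among the rises, Prlr, the prolactin receptor gene at chr15:10177238-10349190, had its far peak at chr15:9973911-9974119, 203 kb away, and 5 peaks inside the gene. At ZT12 it was at 155, 119 and 180 CPM in GFP livers and at 328, 326 and 313 CPM in CRE livers. At ZT22 the groups overlapped, with 231, 413 and 547 CPM in GFP and 358, 366 and 352 CPM in CRE livers. The rise over the 6 times was 0.67 ± 0.17 (adjusted p = 0.00763). The CRE libraries were all higher at 3 of 6 times, and the call was lost without the 6 libraries (adjusted p = 0.0942).

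Slc4a4, a sodium bicarbonate cotransporter, rose by 0.41 ± 0.07 (adjusted p = 6.83e-05), with its far peak at chr5:89278438-89278646, 38.8 kb away. At ZT12 it was at 183, 178 and 179 CPM in GFP and 254, 347 and 259 CPM in CRE livers, with no overlap. Wwox, a WW-domain oxidoreductase, rose by 0.38 ± 0.08 (adjusted p = 0.000841, far peak at 68.0 kb), and Pde4b, a cAMP phosphodiesterase, by 0.47 ± 0.12 (adjusted p = 0.00695, far peak at 30.1 kb). The CRE libraries were all higher at 3 of 6 times for Wwox and at 1 of 6 for Pde4b. At ZT18 the Pde4b change was -0.22 ± 0.30. For Slc4a4, Wwox and Pde4b the far peak was not the closest, since 4, 2 and 2 concordant peaks lay inside them.

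Plxna2, a semaphorin receptor, had no concordant peak inside it or within 100 kb, and its far peak was at chr1:194482752-194482960, 137 kb away. It ran from 59.1 to 202 CPM in GFP livers (median 88.7) and from 77.1 to 246 CPM in CRE livers (median 110), and at ZT12 it was at 70.2, 68.1 and 59.1 CPM against 77.1, 82.1 and 85.1 CPM. The CRE libraries were all higher at 4 of 6 times, and Plxna2 rose by 0.36 ± 0.08 (adjusted p = 0.00118). Jazf1, a zinc-finger cofactor of nuclear receptors, and Diaph3, an actin-nucleating formin, likewise had no concordant peak within 25 kb. Jazf1 rose by 0.37 ± 0.11 (adjusted p = 0.0177, far peak at 39.6 kb) and Diaph3 by 0.61 ± 0.17 (adjusted p = 0.0139, far peak at 56.3 kb). For Jazf1 the CRE libraries were all higher at 3 of 6 times, and its change was 0.07 ± 0.27 at ZT10 and -0.22 ± 0.26 at ZT14. Diaph3 was low, at a median of 2.12 CPM in GFP and 3.99 CPM in CRE livers. The CRE libraries were all higher at 2 of 6 times and all lower at ZT14, where the change was -0.70 ± 0.40 (adjusted p = 0.478). Without the 6 libraries rich in NR_046233 the adjusted p was 0.0564 for Jazf1 and 0.123 for Diaph3.

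Rgs7, a regulator of G-protein signalling, rose by 0.44 ± 0.15 (adjusted p = 0.0418) from a median of 3.31 to 4.15 CPM, with its far peak 60.2 kb away. It also had 1 concordant peak within 25 kb. By hour, Rgs7 was at 0.03, -0.25 and -0.03 at ZT10, ZT12 and ZT13, and at 0.83, 1.01 and 1.06 at ZT14, ZT18 and ZT22. No single hour passed, and the CRE libraries were all higher at 1 of 6 times. The Rgs7 call was lost when any of 21 single libraries was left out, with adjusted p up to 0.0855, and without the 6 libraries rich in NR_046233 (0.0762).

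**Figure D4:**
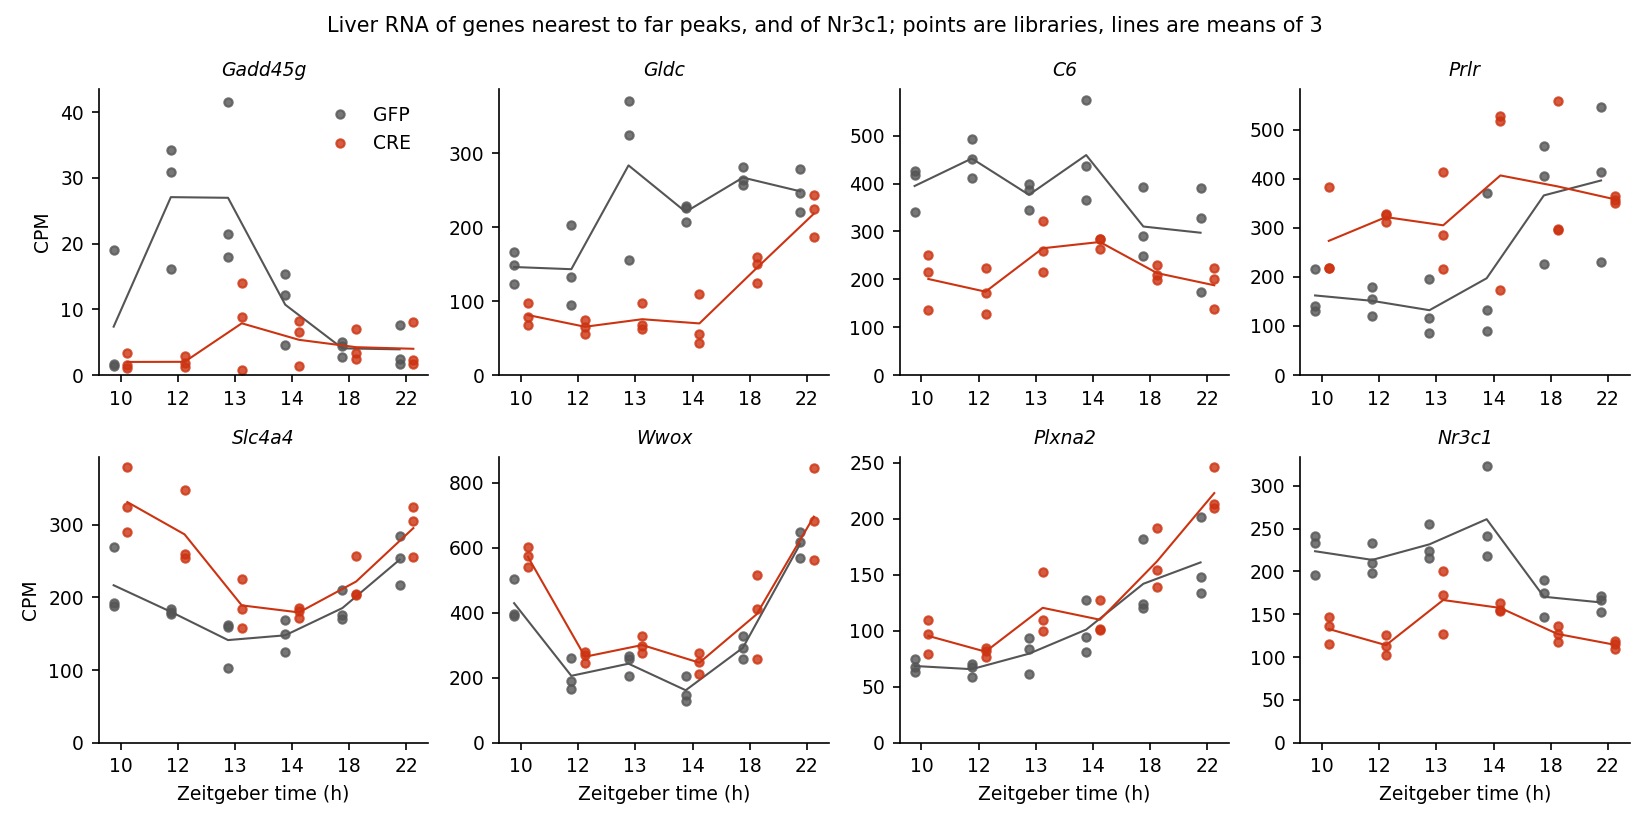
Library-normalised read counts (CPM) by Zeitgeber time in hours for 7 genes nearest to far peaks and for Nr3c1, with GFP in grey and CRE in red. Points are single libraries and lines join means of 3. CRE points lie below GFP points for Gldc and C6 at 5 of 6 times and for Gadd45g at 2 of 6 times. For Plxna2 they lie above GFP points at 4 of 6 times.

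Of the genes that were nearest to 3 or more far peaks, 3 were tested. Irf2 fell by 0.15 ± 0.04 (adjusted p = 0.0155; 0.053 without the 6 libraries rich in NR_046233). Akr1d1 was at -0.03 ± 0.08 (adjusted p = 0.878) and Pvt1 at 0.18 ± 0.12 (adjusted p = 0.365). The other 9 such genes, Rnu7-ps3, 4921525O09Rik, Mir680-3, Mir6344, Gm30911, Gm31164, Gm36873, Gm41020 and Gm25415, had too few counts to be tested.

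At ZT10, the hour of the chromatin, 1 of the 89 nearest genes passed, and it was lower. Of all genes 0.694% passed, 0.471% lower, and at an unadjusted p under 0.05 the count was 20 of 89, against 11.1% of all genes. The count at an adjusted p under 0.05 was 0 when CRE replicate 1 or 2 or GFP replicate 3 was left out. DESeq2 called 4 of 83 nearest genes at this hour and 1.49% of all genes. C6 was at -0.98 ± 0.24 (adjusted p = 0.0557) and Gldc at -0.85 ± 0.28 (adjusted p = 0.195). Gadd45g was at -1.82 ± 0.89 (adjusted p = 0.443) and rested on 1 library, since GFP replicate 1 was at 19.0 CPM, the other GFP livers at 1.74 and 1.34 CPM and the CRE livers at 1.14, 3.32 and 1.51 CPM. Without that library its change was 0.51 (adjusted p = 0.932).

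At ZT12, the later unfed hour, 8 nearest genes passed, 3 higher and 5 lower, where 3.75% of all genes passed, 1.5% higher and 2.25% lower. Among those lower, the log2 changes were -3.76 ± 0.86 for Gadd45g (adjusted p = 0.00864), -1.38 ± 0.25 for C6 (adjusted p = 0.000695) and -1.13 ± 0.28 for Gldc (adjusted p = 0.0162), and another was Dnajc1, which the naming rule left out. The rises were Pde4b by 1.06 ± 0.30 (adjusted p = 0.0405), Slc4a4 by 0.67 ± 0.17 (adjusted p = 0.0188) and Irs1 by 0.63 ± 0.18 (adjusted p = 0.0464). Irs1 was at 63.1, 61.5 and 63.0 CPM in GFP livers and at 98.0, 91.5 and 101 CPM in CRE livers, without overlap. Its call was nevertheless lost whichever of the 6 libraries was left out (adjusted p 0.0996 to 0.17) and with the replicate number as a block (0.0579), and over the mean of the 6 times Irs1 was at 0.17 ± 0.07 (adjusted p = 0.138).

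Single libraries also decided several other ZT12 calls. That of Gadd45g was lost without CRE replicate 1 or 3 (adjusted p 0.052 and 0.0592), and that of Gldc without CRE replicate 1 or 3 or GFP replicate 2 (0.0662, 0.0907 and 0.218). The Slc4a4 call was lost without CRE replicate 2 or any GFP library (0.0524 to 0.192). The Pde4b call was lost without any CRE library or GFP replicate 2 or 3 (0.0984 to 0.268). Without GFP replicates 1 and 2, the ones rich in NR_046233, 2 of 92 nearest genes passed at ZT12, against 0.64% of all genes, and Gadd45g was one of them (adjusted p = 0.0347). The calls of C6 (0.0691), Gldc (0.922), Slc4a4 (0.418), Pde4b (0.386) and Irs1 (0.478) were lost. With only the ZT12 libraries of both groups in the fit 20 of 85 nearest genes passed, against 5.27% of all genes in that fit. DESeq2 called 13 of 83, against 5.75% of all genes.

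The effect of CRE differed among the 6 times for 1 of the 89 nearest genes, Ankrd44, an ankyrin-repeat subunit of protein phosphatase complexes (adjusted p = 0.0277), where 0.687% of all genes passed. DESeq2 called 4 of 90 and 2.44% of all genes. At an unadjusted p under 0.05 the count was 16 of 89, against 10.8% of all genes. Ankrd44 was lower in CRE livers by 0.79 ± 0.12 on the log2 scale at ZT13. The GFP livers were then at 51.6, 79.1 and 53.9 CPM and the CRE livers at 35.8, 34.4 and 36.8 CPM. At ZT12 it was lower by 0.37 ± 0.12, with 58.1, 59.1 and 59.6 CPM against 47.0, 44.5 and 45.7 CPM. At ZT10, ZT14, ZT18 and ZT22 the values were -0.04, -0.08, 0.08 and -0.09. Its far peak is at chr1:54615059-54615267, 30.1 kb from the gene, which also holds 2 concordant peaks.

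The second RNA comparison asked which of the nearest genes differed between fed and unfed C57BL/6 livers at the same hour. Of 88 nearest genes tested, 35 passed (39.8%, 30.2% to 50.2%), 16 higher and 19 lower in fed livers. The share over all 14744 genes was 35.4%, with 17.5% higher and 17.9% lower, so the count was near the background. The median change was -0.02 for these genes and 0.01 for all genes. Flanking and inside peaks had nearest genes that passed in 49.5% of 713 and 47.9% of 2009 cases. Markers of endothelial cells were lower in fed livers for 7 of 8 genes, summing to 255 to 355 CPM in the 12 unfed and 210.5 to 294 CPM in the 12 fed libraries. Of the stellate cell markers 2 of 6 were higher with food (117 to 237 CPM unfed, 161 to 243 CPM fed), and the part of either list in these results was not tested.

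Nudt7, a peroxisomal coenzyme A hydrolase, was the largest rise with food, by 1.56 ± 0.14 on the log2 scale (12 libraries a side, adjusted p = 5.89e-09). At ZT18 it was at 222, 170 and 88.8 CPM unfed and at 997, 856 and 630 CPM fed. The fed libraries were far above the unfed ones at this hour. Its far peak, chr8:114107380-114107588, lies 26.0 kb from the gene, and 1 concordant peak lies within 25 kb of it. Pvt1 rose by 0.76 ± 0.13 (adjusted p = 6.64e-05), from 3.22, 3.13 and 1.82 CPM unfed to 8.66, 10.2 and 5.4 CPM fed at ZT18. Its libraries overlapped at ZT13 (3.17 to 4.96 CPM unfed, 4.35 to 5.32 CPM fed). They also did at ZT22 (3.10 to 4.21 CPM unfed, 3.90 to 6.73 CPM fed).

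Gimd1, a GTPase family member, rose by 1.42 ± 0.24 (adjusted p = 4.96e-05) and Slc13a1, a sulfate transporter, by 0.93 ± 0.33 (adjusted p = 0.0275). Both were at very low levels, with medians of 0.491 and 0.632 CPM unfed and 1.35 and 1.47 CPM fed. The Slc13a1 call was lost without unfed replicate 3 of ZT18 (adjusted p = 0.0515) or fed replicate 3 of ZT22 (adjusted p = 0.0679).

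Ccng2, a cyclin that restrains proliferation, changed with food by -1.11 ± 0.11 (adjusted p = 1.28e-08), and at ZT18 it was at 42.6, 33.6 and 41.4 CPM unfed and at 16.1, 16.3 and 16.0 CPM fed. Mylip, the ubiquitin ligase of the LDL receptor, fell by 1.05 ± 0.08 (adjusted p = 3.78e-10), from 21.9, 18.02 and 15.7 CPM to 6.22, 6.86 and 9.88 CPM at ZT18. Neither gene had a concordant peak inside or within 25 kb, and their far peaks were at chr5:93305546-93305754 (29.3 kb) and chr13:45455281-45455489 (43.3 kb). In CRE against GFP livers Ccng2 was at -0.05 ± 0.08 and Mylip at -0.07 ± 0.04 (adjusted p = 0.765 and 0.287) over the mean of the 6 times. At ZT13 alone Ccng2 fell by 0.73 ± 0.20 (adjusted p = 0.0268), with 6.17, 8.29 and 6.69 CPM in GFP and 4.85, 3.88 and 4.00 CPM in CRE livers. Calls at ZT13 were not counted over all genes, and leaving out single libraries was not tried for that hour. At ZT10 Ccng2 was at 0.47 ± 0.21 (adjusted p = 0.377), with all CRE libraries above all GFP libraries. Gm7854 changed with food by -0.58 ± 0.17 (adjusted p = 0.00924) and Slc4a4 by -0.52 ± 0.09 (adjusted p = 6.99e-05).

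**Figure D5:**
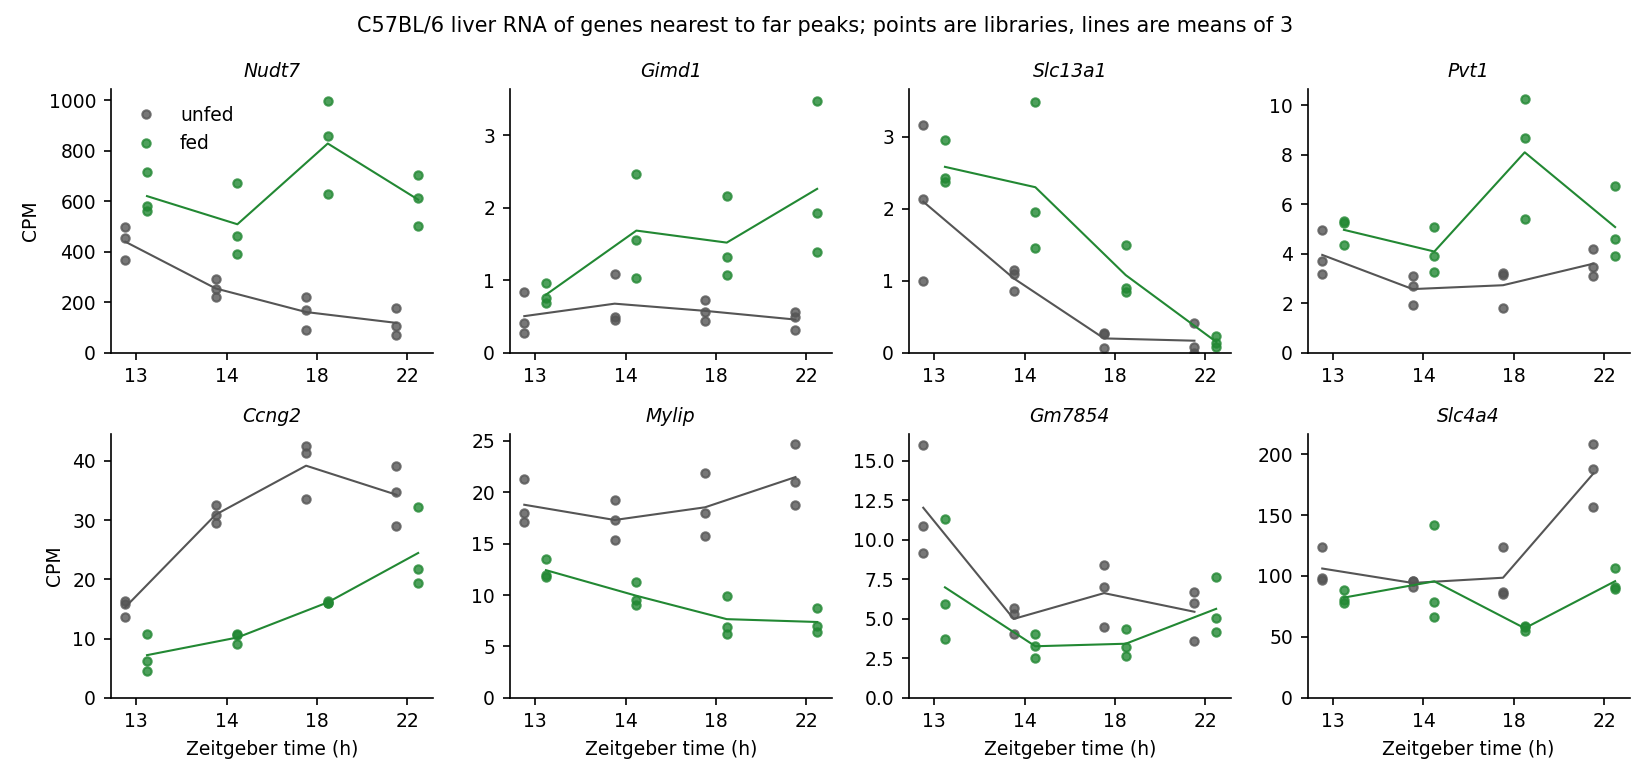
Library-normalised read counts (CPM) by Zeitgeber time in hours in C57BL/6 livers for 8 genes nearest to far peaks, with unfed in grey and fed in green. Points are single libraries and lines join means of 3. Fed libraries lie above unfed ones for Nudt7 and below them for Mylip at the 4 hours with both feeding states.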

How the data were processed

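Raw counts per RefSeq transcript were deposited by the authors for each liver RNA library. The authors' 3 deposited peak lists hold coordinates only. The submitters' processing notes name STAR, HOMER, DESeq2 and mm10, without versions or roles, and the sources used here give neither peak thresholds nor pooling. Starts were read as counting from 0 and printed 1 higher. Peaks were compared with bedtools 2.31.1 and set against RefSeq gene intervals of GRCm38.p6, the assembly that mm10 names. Of 40458 count rows, 40219 matched a gene (24790 genes, the row with the highest total standing for each), and unmatched rows stayed out of library sizes. The row NR_046233 held most of the unmatched counts in the virus libraries.

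Counts were tested with edgeR 4.0.16 in R 4.3.3 (TMM factors, filterByExpr, quasi-likelihood F-test, 1 fit per experiment), with Benjamini-Hochberg adjustment over 15712 genes (virus) or 14744 genes (feeding), after a check on simulated data. CPM are counts over TMM-scaled library size. Adjusted p-values are edgeR's unless DESeq2 1.42.0 is named. Strand of counting is not given, so overlapping or antisense genes cannot be told apart. No genome was used, so motifs under far peaks were not searched.

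The peaks, gene lists and naming rule were chosen with earlier results of these data known. Named are the 8 largest falls and 8 largest rises of the CRE comparison among nearest genes past the threshold with at least 1 CPM, up to 4 each way in the other comparisons, genes nearest to 3 or more far peaks, and Nr3c1. One gene that this rule takes is not reported here. The nearest protein-coding gene per peak was an alternative added after the data were seen.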

Additional observations from a re-analysis of the deposited data

Results flagged for a closer look

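Ankrd44 stood out because the effect of CRE on it differed among the 6 times by the interaction test (edgeR adjusted p = 0.0277, 3 libraries a group). All 3 CRE libraries were below all 3 GFP libraries at 2 of 6 times. DESeq2 gave an adjusted p of 0.000579 for the same question and edgeR with the replicate number as a block gave 0.038.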

How the results depend on the processing

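The number of far peaks was 873, 155 and 45 at limits of 10, 50 and 100 kb, and 1029 when only genes of the count tables were used as intervals. The share of far peaks in the input-control list fell from 100% to 70.7% when the overlap had to reach 50% of the peak or its midpoint. The 32 nearest genes called over the mean of the 6 times became 86 of 293 with the nearest tested gene per peak, 51 of 174 with the nearest gene on each side, 75 of 247 with the nearest protein-coding gene, 19 at an adjusted p under 0.01, and 15 without the 6 libraries rich in NR_046233. Leaving out single libraries gave 28 to 34. At ZT10 the count of 1 became 4 with DESeq2, 2 without the count filter, 3 with only the 2 groups in the fit, 3, 2 and 3 with the same other gene choices, and 0 at 0.01 or, at the lowest, without 1 library (0 to 1). At ZT12 the count of 8 became 13 with DESeq2, 20 with only the 2 groups, 2 without the libraries rich in NR_046233, 23, 16 and 20 with the other gene choices, 4 at 0.01 and 4 to 6 without 1 library. In fed against unfed livers the main count was 35 of 88 (39.8%), against 35.4% of all genes. The other gene choices gave 117 of 288 (40.6%), 67 of 167 (40.1%) and 101 of 240 (42.1%). At 0.01 the count was 22, and it was 31 to 37 without 1 library. The same choices tested 293, 174 and 247 genes at ZT10 and ZT12, where 0.694% and 3.75% of all genes passed. Shares of all genes are not given here for counts at 0.01, without the count filter, without 1 library or with a replicate block. For the interaction DESeq2 called 4 in place of 1. DESeq2 kept all 32 genes of the mean of the 6 times among its 35, and 34 of the 35 feeding genes.

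Replicate numbers did not pair the libraries: deviations of same-numbered libraries correlated at -0.14 to 0.127 over 18 pairs in the virus experiment and -0.0421 to 0.0771 over 12 pairs in the feeding experiment. With the replicate number as a block, 32, 1, 9, 37 and 1 nearest genes passed in the 5 comparisons in the order above, and of the named calls the block ended that of Irs1 at ZT12 (adjusted p = 0.0579). Among 36 calls of named genes, 20 held under every alternative and none changed sign. Both counts include the calls of Nr3c1 over the mean of the 6 times, at ZT10 and at ZT12, which all held. Nr3c1 is the deleted gene and is not nearest to any far peak. Leaving out single libraries moved Akr1d1, which was not called, from -0.054 to 0.023, with a change of sign without CRE replicate 1 of ZT12, GFP replicate 2 of ZT13 or GFP replicate 1 of ZT22, and it was at 0.036 without the libraries rich in NR_046233. Gadd45g at ZT10 ranged from -2.54 to 0.51, with the change of sign without GFP replicate 1. The motif alternatives and ZT10 without the libraries rich in NR_046233 were not run.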
